A study of Mus musculus with 9 samples.

Results

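The proteasome genes of mouse lung neutrophils were taken as every listed gene whose symbol is Psm followed by a letter from a to g and a digit. There were 50 such genes among 18325 with values, and 49 of them passed the filter on low counts. The gene left untested, Psma8, a testis form of an alpha ring subunit, had at most 12 estimated counts in any library. The 5 immunoproteasome genes (Psmb8, Psmb9, Psmb10, Psme1 and Psme2) were kept apart from the other 45. Psmc3ip matches the symbol rule but encodes a recombination factor and not a proteasome subunit.

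The libraries came from female BALB/c mice without a genetic modification named in the labels, and the age of the mice is not given there. Neutrophils positive for CD45 and either high or low in surface Ly6g were sorted from lungs at the macrometastatic stage, after 4T1-LM3 cells had been placed in the mammary fat pad. This line was derived from the 4T1 mammary carcinoma by repeated selection for growth in lung. Ly6g-high neutrophils of the normal lung of female BALB/c mice were the comparison group. Each group had 3 libraries, and the sources used here do not say whether a library was a single mouse or a pool, so p-values measure the spread between these libraries, which may be partly technical. For the normal lung libraries the description gives the Ly6g-high group with no tissue, so their place in the design rests on titles and treatment.

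Libraries held 15267177 to 17841807 estimated counts. Scaling factors differed by group (edgeR's TMM, 0.803 to 0.807 in Ly6g-low, 0.945 to 0.950 in macrometastatic Ly6g-high and 1.30 to 1.32 in normal lung libraries), and this bears on every comparison with normal lung. The 12 neutrophil markers (S100a8, Csf3r, Retnlg and others) were all detected in each library. They summed to 22890 to 23140 CPM (counts scaled to library size after TMM) in normal lung, 86360 to 88250 in Ly6g-low and 102400 to 105000 in macrometastatic Ly6g-high libraries. Between the macrometastatic groups single markers did not all follow the sum. By the calls defined below, 4 of the 12 stood higher in Ly6g-low neutrophils (background 9.29%) and 3 stood higher in Ly6g-high ones (background 15.9%). Against normal lung, 12 were called higher in Ly6g-high (background 26.3%) and 11 in Ly6g-low neutrophils (background 28.7%), and none lower. Ly6g, whose protein was sorted on, had 177.56 to 183.53 FPKM in normal lung, 357.64 to 373.45 in Ly6g-low and 395.58 to 416.57 in macrometastatic Ly6g-high libraries. In CPM the order of the macrometastatic groups was the other way, with 361.2 to 380.1 in Ly6g-high and 384.6 to 403.2 in Ly6g-low libraries, and normal lung had 117.8 to 120.2. The normal lung library of replicate 2 differed more from the other two (chi-square per degree of freedom 4.05 and 5.30) than any other pair of one group did (1.41 to 2.51), so results with normal lung are also given without it.

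The proteasome is the main protease of the cytosol and nucleus and degrades proteins tagged with ubiquitin. Its barrel, the 20S core, has outer rings of alpha subunits and inner rings of beta subunits, of which Psmb5, Psmb6 and Psmb7 encode the cutting ones. The 19S cap binds ubiquitin chains, removes them, and unfolds and feeds in the substrate with its ring of Psmc ATPases. After interferon, the inducible subunits encoded by Psmb8, Psmb9 and Psmb10 take the places of those of Psmb5, Psmb6 and Psmb7, and the PA28 cap encoded by Psme1 and Psme2 can bind the core in place of 19S. Cores so altered are called immunoproteasomes and are best known for cutting peptides that are shown on MHC class I.

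The promoters of the catalytic pairs are shown first because the clearest differences were found in the balance within these pairs. A promoter was taken from RefSeq (GRCm38.p6, the assembly that mm10 stands for) as 250 bases before to 50 bases after a transcript start, and 42 of the 50 genes matched, with 45 promoters. Capitals mark the letters of 3 motifs searched on both strands, the interferon-gamma-activated site (GAS, TTCNNNGAA), an interferon regulatory factor element (GAAANNGAAA) and the antioxidant response element core bound by NRF1 and NRF2 (TGACNNNGC). Psmb7 had no entry.
Psmb8, chr17:34197945-34198244, plus strand: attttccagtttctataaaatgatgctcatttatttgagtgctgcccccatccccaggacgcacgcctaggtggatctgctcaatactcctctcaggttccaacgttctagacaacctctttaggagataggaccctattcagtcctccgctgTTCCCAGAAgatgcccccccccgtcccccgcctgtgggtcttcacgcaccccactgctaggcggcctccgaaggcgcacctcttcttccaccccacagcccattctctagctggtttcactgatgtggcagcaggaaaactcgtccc
Psmb9, chr17:34187281-34187580, minus strand: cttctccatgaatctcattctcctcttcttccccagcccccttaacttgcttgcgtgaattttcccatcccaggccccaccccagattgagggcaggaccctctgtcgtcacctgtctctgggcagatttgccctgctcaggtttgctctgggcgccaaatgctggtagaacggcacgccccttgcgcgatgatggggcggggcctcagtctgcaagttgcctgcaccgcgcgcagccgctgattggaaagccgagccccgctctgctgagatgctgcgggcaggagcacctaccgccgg
Psmb10, chr8:105938343-105938642, minus strand: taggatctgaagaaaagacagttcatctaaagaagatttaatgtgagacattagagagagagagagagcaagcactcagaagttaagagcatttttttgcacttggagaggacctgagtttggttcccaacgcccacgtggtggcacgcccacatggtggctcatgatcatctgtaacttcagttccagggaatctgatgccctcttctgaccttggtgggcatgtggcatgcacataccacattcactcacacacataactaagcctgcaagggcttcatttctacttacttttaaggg
Psmb5, chr14:54617946-54618245, minus strand: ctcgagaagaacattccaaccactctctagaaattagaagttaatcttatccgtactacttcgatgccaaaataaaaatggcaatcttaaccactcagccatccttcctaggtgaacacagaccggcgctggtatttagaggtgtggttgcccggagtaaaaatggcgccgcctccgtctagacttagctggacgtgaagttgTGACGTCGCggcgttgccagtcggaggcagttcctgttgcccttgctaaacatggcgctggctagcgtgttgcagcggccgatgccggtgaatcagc
Psmb6, chr11:70525107-70525406, plus strand: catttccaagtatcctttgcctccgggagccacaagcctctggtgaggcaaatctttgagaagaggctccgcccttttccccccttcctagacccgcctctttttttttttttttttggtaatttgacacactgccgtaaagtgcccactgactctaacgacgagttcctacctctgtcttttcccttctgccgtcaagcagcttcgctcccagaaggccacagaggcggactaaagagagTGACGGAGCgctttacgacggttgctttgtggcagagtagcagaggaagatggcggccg

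Psmb8 held a GAS beginning 97 bases before the start, Psmb5 an antioxidant core 47 bases before it and Psmb6 one 9 bases before it. None of these overlapped another of the 3 motifs. The windows of Psmb9 and Psmb10 held none of these letters. Among all 32851 promoters of the table, 8.3% held the GAS, 3.44% the interferon element and 12.4% the antioxidant core. Of the 45 proteasome promoters, 3 held the GAS (Psmb8, Psmd2, Psmg1), 5 the interferon element (Psmb3, Psmd4, Psmd9, Psme1, Psmg4) and 6 the antioxidant core (Psmb5, Psmb6, Psmc6, Psmd9, Psmd12, Psme4). A CCAAT box stood in 15 of the 45, against 37.4% of all promoters, and a loose kB motif (GGGANNNNCC) in 11, against 20.7%. A match of letters is a description of the sequence and not evidence of binding.

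The balance within the catalytic pairs was compared by the ratio of FPKM (fragments scaled to transcript length and depth) of the inducible to the constitutive subunit in the same library, a quantity that no scaling between libraries can change. Normal lung neutrophils carried more of the inducible form than macrometastatic neutrophils in the pairs Psmb8 with Psmb5 and Psmb10 with Psmb7. The pair of Psmb9 with Psmb6 had another order, with its highest ratio in the macrometastatic Ly6g-low neutrophils. Each ratio was tested for a difference among the 3 groups by a one-sided exact permutation test over the 280 ways of assigning 9 libraries to 3 groups of 3. With 3 libraries on each side the smallest exact p of a pairwise test is 0.1, so pairs of groups are described by their values.

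Psmb8 encodes the inducible form of the chymotrypsin-like subunit, for which Psmb5 is the constitutive form. In the macrometastatic Ly6g-high libraries, Psmb8 had 47.3, 49.6 and 48.98 FPKM and Psmb5 had 37.4, 36.2 and 36.5 FPKM. In the Ly6g-low libraries, Psmb8 had 39.2, 42.5 and 40.2 FPKM and Psmb5 had 29.2, 28.4 and 24.7 FPKM. In the normal lung libraries, Psmb8 had 97.5, 91.4 and 95.02 FPKM and Psmb5 had 34.6, 34.2 and 35.8 FPKM. On FPKM, Psmb8 was thus high in all normal lung libraries, while Psmb5 there was close to its macrometastatic Ly6g-high level. After TMM scaling Psmb5 had means of 31.8 CPM in Ly6g-high and 21.9 CPM in normal lung, without overlap (log2 fold change 0.54, edgeR adjusted p = 7.2e-08, 0.07 on library totals), and was not called. Psmb8 made up 57.0 ± 1.0% (SD, n = 3) of the pair in Ly6g-high, 59.8 ± 2.35% (SD, n = 3) in Ly6g-low and 73.1 ± 0.619% (SD, n = 3) in normal lung neutrophils. The log2 ratio differed from normal lung by -1.03 in macrometastatic Ly6g-high and by -0.87 in Ly6g-low neutrophils, with no overlap, whereas the macrometastatic groups overlapped each other. The exact permutation p was 0.0107, or 0.0143 after adjustment over the 3 ratios (n = 3 per group).

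Psmb10 encodes the inducible trypsin-like subunit and Psmb7 its constitutive counterpart. Psmb10 had 14.2, 13.5 and 12.6 FPKM in the macrometastatic Ly6g-high libraries, 9.83, 11.5 and 8.40 in the Ly6g-low libraries and 37.8, 36.5 and 36.1 in the normal lung libraries. Psmb7 had 65.2, 67.7 and 64.8 FPKM in Ly6g-high, 42.8, 49.1 and 43.7 in Ly6g-low and 55.97, 54.4 and 57.4 in normal lung libraries. The inducible gene of this pair was the scarcer one in every library. Its share was 16.9 ± 0.866% in Ly6g-high, 17.9 ± 1.59% in Ly6g-low and 39.7 ± 0.909% in normal lung neutrophils (SD, n = 3 each). The ratio in macrometastatic Ly6g-high neutrophils was 0.309 times that in normal lung, and in Ly6g-low neutrophils it was 0.331 times. The macrometastatic groups overlapped each other and neither overlapped normal lung (exact permutation p = 0.0143, adjusted 0.0143, n = 3 per group).

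Psmb9 encodes the inducible subunit that takes the place of the constitutive caspase-like one encoded by Psmb6. Psmb9 had 57.3, 57.4 and 54.8 FPKM in macrometastatic Ly6g-high, 49.2, 51.04 and 50.9 in Ly6g-low and 73.6, 62.7 and 73.1 in normal lung libraries. Psmb6 had 30.8, 29.0 and 27.5 FPKM in Ly6g-high, 16.4, 17.7 and 15.3 in Ly6g-low and 39.96, 40.3 and 44.5 in normal lung libraries. Psmb6 therefore ran lower in Ly6g-low than in Ly6g-high libraries by more than Psmb9 did, and on FPKM both genes ran higher in normal lung. In CPM Psmb9 had means of 46.7 in Ly6g-high, 49.4 in Ly6g-low and 42.1 in normal lung, the lowest there, and Psmb6 overlapped between Ly6g-high and normal lung. The share of Psmb9 was 66.0 ± 0.838% in Ly6g-high, 75.4 ± 1.38% in Ly6g-low and 62.6 ± 2.01% in normal lung neutrophils (SD, n = 3 each), with no overlap between any groups. The ratio in Ly6g-low neutrophils was 1.58 times that in Ly6g-high and 1.83 times that in normal lung neutrophils. The exact permutation p was 0.00357, the smallest that 280 assignments can give, and 0.0107 after adjustment (n = 3 per group).

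**Figure D1:**
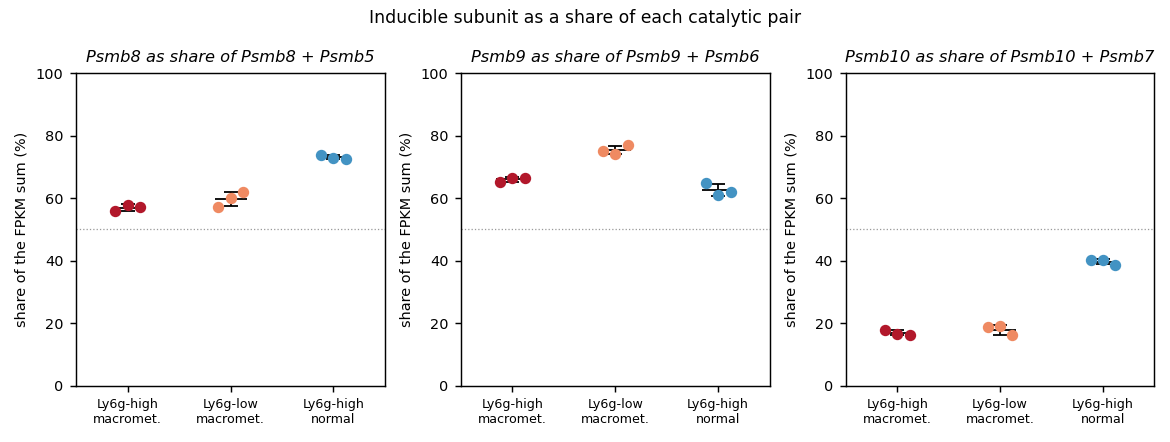
Share of the inducible subunit in the FPKM sum of each catalytic pair (percent, vertical axes from 0 to 100), one point per library, with the mean and SD of the 3 libraries of each group in black and 50% dotted. The normal lung points stand highest for Psmb8 (73.1% on average) and Psmb10 (39.7%), and the Ly6g-low points highest for Psmb9 (75.4%).

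Without the normal lung library of replicate 2, macrometastatic Ly6g-high neutrophils differed from normal lung in log2 ratio by -1.04 for Psmb8 to Psmb5, -1.68 for Psmb10 to Psmb7 and 0.16 for Psmb9 to Psmb6. Markers of other cells also differed between these groups. Of all genes tested, 36.6% were called lower and 26.3% higher in Ly6g-high over normal lung neutrophils, and 40.8% and 28.7% in Ly6g-low over normal lung neutrophils. The 8 dendritic cell markers, which include the MHC class II genes H2-Aa and H2-Ab1, summed to 1663 to 1907 CPM in normal lung, 661.8 to 707.1 in macrometastatic Ly6g-high and 408.8 to 440.1 in Ly6g-low libraries, with all 8 called lower in each macrometastatic group. The 12 alveolar macrophage markers summed to 2163 to 2205 CPM in normal lung, 1637 to 1696 in Ly6g-high and 352.9 to 373.9 in Ly6g-low libraries, with 9 and 11 of them called lower in the macrometastatic groups. The 7 epithelial and tumor markers summed to 1066 to 1200, 83.6 to 89.4 and 78.4 to 83.5 CPM in the same order, the 4 endothelial ones to 651.8 to 697.2, 107.1 to 111.6 and 132.1 to 139.8, and the 5 fibroblast ones to 514.4 to 544.9, 49.4 to 57.0 and 51.5 to 57.6. All members of these 3 lists were called lower in both macrometastatic groups. The 8 monocyte and macrophage markers summed to 555.8 to 592.8 CPM in normal lung libraries. They had 478.3 to 487.7 in Ly6g-high and 476.4 to 494.6 in Ly6g-low libraries. Of these 8, 4 were called lower and 1 higher in Ly6g-high over normal lung. In Ly6g-low over normal lung 5 were called lower and 1 higher. Lymphocyte sums were small. The T cell markers summed to 86.2 to 91.7 CPM in normal lung, 48.2 to 50.8 in Ly6g-high and 36.6 to 37.9 in Ly6g-low libraries, and the NK cell ones to 14.5 to 14.8, 6.26 to 7.63 and 2.92 to 3.39, with 6 of 7 and 4 of 5 called lower in each macrometastatic group. Granulocyte markers of other kinds moved otherwise, with sums for basophils and mast cells of 3.38 to 3.50, 18.1 to 20.9 and 10.8 to 12.1 and for eosinophils of 37.9 to 41.3, 74.8 to 80.6 and 33.2 to 34.4 CPM, and B cell markers had 27.4 to 29.9 CPM in normal lung against 46.3 to 47.3 in Ly6g-high libraries. In Ly6g-high over normal lung 4 of 5 basophil and mast cell, 3 of 4 eosinophil and 3 of 5 B cell markers were called higher, and in Ly6g-low over normal lung 3, 3 and 1. Apart from erythroid genes, no marker of these lists was at 0 in all libraries of a group. The part of such cells in the differences from normal lung was not tested, and in bulk RNA fewer cells of a type cannot be told apart from less RNA per cell.

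Among the genes with Psm symbols, the PA28 genes Psme1 and Psme2 were the most abundant per length in each group. Psme1 had 79.99, 75.6 and 80.03 FPKM in macrometastatic Ly6g-high, 62.96, 65.8 and 59.3 in Ly6g-low and 121.7, 119.2 and 121.7 in normal lung libraries. Psme2 had 79.2, 76.2 and 80.2 FPKM in Ly6g-high, 60.3, 61.6 and 51.5 in Ly6g-low and 112.4, 103.5 and 116.2 in normal lung libraries. For both genes the groups did not overlap in FPKM and had the order normal lung, Ly6g-high, Ly6g-low. Relative to the mean of 11 structural 20S genes of the same library, the mean of both PA28 genes was 1.57 ± 0.0598 in Ly6g-high, 1.66 ± 0.0994 in Ly6g-low and 2.51 ± 0.0971 in normal lung neutrophils (SD, n = 3 each). The 5 immunoproteasome genes together held 17.8 ± 0.261% of the FPKM of all proteasome genes in Ly6g-high, 19.5 ± 0.525% in Ly6g-low and 25.6 ± 0.671% in normal lung neutrophils. These sums are descriptions without a test.

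**Figure D2:**
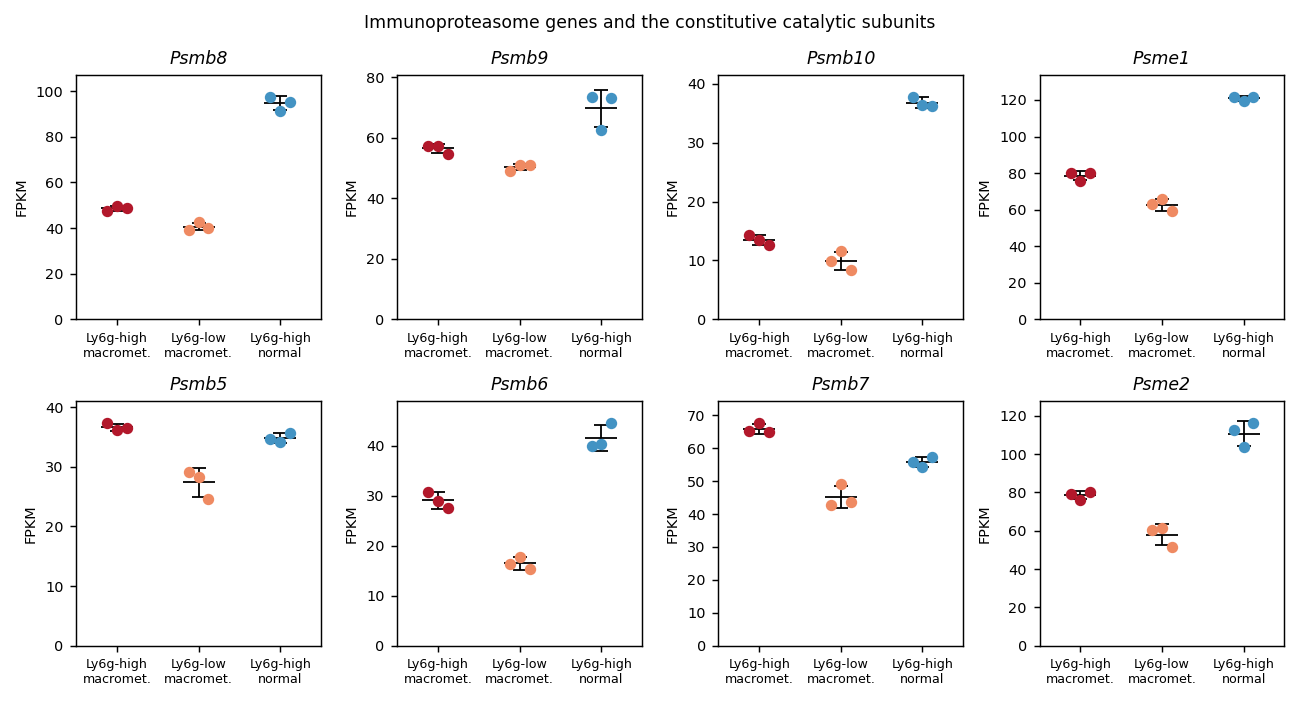
FPKM per library (vertical axes, linear, from 0) of the 5 immunoproteasome genes and of Psmb5, Psmb6 and Psmb7, with the mean and SD of the 3 libraries of each group in black. Psmb8, Psmb9, Psmb10, Psme1, Psme2 and Psmb6 are highest in all normal lung libraries, and every gene shown is lowest in the Ly6g-low libraries.

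Between the macrometastatic groups, the proteasome genes ran slightly lower in Ly6g-low than in Ly6g-high neutrophils. Fitted changes come from edgeR's quasi-likelihood test with Benjamini-Hochberg adjustment over 14108 genes, and calls required an adjusted p no larger than 0.05 and a log2 fold change beyond 0.58 in size. No member was called higher, against 9.29% of all genes tested, and 5 of 49 were called lower, against 15.9%. DESeq2, and an unadjusted p with the fold threshold, also gave 0 called higher. The share of all genes called was not taken under these settings. By the adjusted p alone 3 members were higher (background 26.1%) and 29 lower (background 29.6%). The median log2 fold change of the members was -0.27 and that of all genes -0.04. The distance of the members below the median of all genes was 0.23 under all 4 count scalings. These shift all genes alike by construction, so that agreement is no test of the distance. It was 0.32 and 0.27 on log2 FPKM with a pseudocount of 1 and 0.1. The changes were thus mostly small and in one direction, with few past the fold threshold. Markers of other cells moved between these groups too. The alveolar macrophage markers, whose sums are given above, were called lower in 9 of 12 and higher in none, the dendritic cell ones lower in 3 of 8 and higher in 1, and the 5 B cell markers, all called lower, summed to 46.3 to 47.3 CPM in Ly6g-high and 28.1 to 30.0 in Ly6g-low libraries. Their part in the differences between the macrometastatic groups was not tested.

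The called genes belonged to the 19S cap or its assembly. Psmd14, the metalloprotease that cuts ubiquitin chains off the substrate, had 50.1, 51.8 and 51.8 CPM in Ly6g-high and 28.8, 28.5 and 31.3 CPM in Ly6g-low libraries. Psmd1, the large scaffold of the 19S base, had 51.8, 54.7 and 56.6 CPM in Ly6g-high and 29.5, 30.7 and 34.9 CPM in Ly6g-low libraries. Psmd7, the partner of Psmd14 in the lid, had 20.4, 21.2 and 22.2 CPM against 12.7, 14.1 and 11.4 CPM. All of these libraries were separated, with every Ly6g-low value below every Ly6g-high value. The log2 fold changes were -0.79 for Psmd14 (SE 0.058, adjusted p = 1.21e-10), -0.78 for Psmd1 (SE 0.0644, adjusted p = 9.31e-10) and -0.74 for Psmd7 (SE 0.0855, adjusted p = 1.65e-07). The base chaperone Psmd9 (-0.72) and the ATPase Psmc3 (-0.68) were the other two. Psmd1 overlaps Htr2b in the annotation, and whether reads were counted by strand is not stated.

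Within the 19S cap the genes did not move alike. In the ATPase ring, 5 of 6 were lower by the adjusted p (background 29.6%), from -0.68 for Psmc3 to -0.30 for Psmc1, while Psmc6 had -0.01. In the lid, 6 of 8 were lower by the adjusted p (background 29.6%), and Psmd11 and Psmd8 had 0.01 and 0.10. Psmd4, a ubiquitin receptor of the base, had 0.09. On library totals or FPKM, Psmd8, Psmd11 and Psmd4 were below 0 too. The coefficient of variation of FPKM over the 17 genes of the 19S was 0.378 ± 0.00777 in Ly6g-high, 0.553 ± 0.0217 in Ly6g-low and 0.281 ± 0.026 in normal lung libraries (SD, n = 3 each), so that levels of partners in this complex were most unequal in Ly6g-low neutrophils. Over the 11 structural genes of the 20S it was 0.313 ± 0.023, 0.321 ± 0.00808 and 0.223 ± 0.0334.

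The 20S genes moved in a narrow range between the macrometastatic groups. Of 7 tested alpha ring genes, with log2 fold changes of -0.31 to 0.04, 5 were lower by the adjusted p (background 29.6%). None of the 7 was called (background 9.29% higher and 15.9% lower). All 4 structural beta genes were lower by the adjusted p (background 29.6%), from -0.33 for Psmb3 to -0.21 for Psmb4. Among the constitutive catalytic genes Psmb6 had the largest change, -0.56. It passed the fold threshold on library totals (-0.80) and on log2 FPKM (-0.79 and -0.82 with a pseudocount of 1 and 0.1). It also passed without the Ly6g-high library of replicate 3 or the Ly6g-low library of replicate 2. The immunoproteasome genes had -0.02 for Psmb8, 0.08 for Psmb9, -0.20 for Psmb10, -0.09 for Psme1 and -0.20 for Psme2, of which Psme2 passed the adjusted p (adjusted p = 0.00857). Their median lay 0.05 below that of all genes under the count scalings, which fix this distance by construction. It lay 0.19 and 0.08 below on log2 FPKM with a pseudocount of 1 and 0.1. Only the sign of Psmb9, on library totals and FPKM, and that of Psmb8, with DESeq2's size factors, changed with the scaling. Psme4, which encodes the PA200 activator, had 0.20, which passed the adjusted p but fell to -0.03 on library totals and below 0 on FPKM too. Psmb11, a thymus subunit of about 1 FPKM, had 0.51 and passed the adjusted p, though not on library totals or FPKM, where it stayed above 0.

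**Figure D3:**
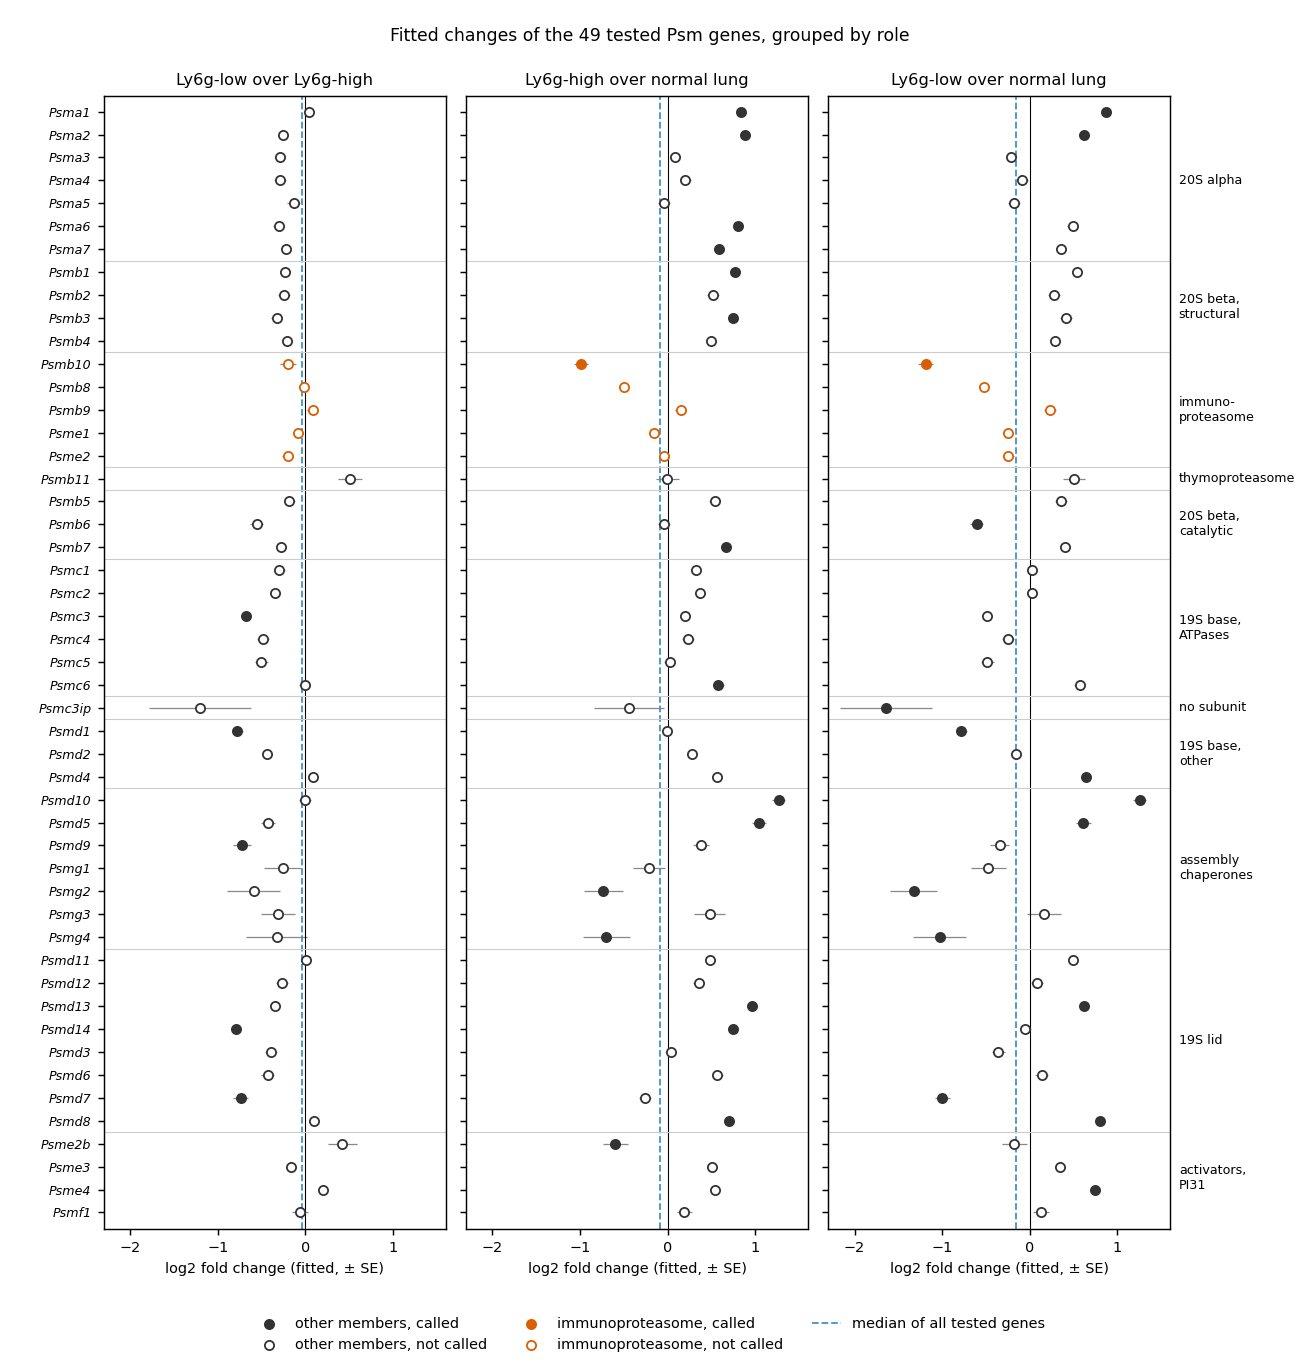
Fitted log2 fold changes with SE (horizontal axes) of the 49 tested proteasome genes in the 3 comparisons, one row per gene and grouped by role, with filled points for called genes, orange for the immunoproteasome and a dashed line at the median of all genes tested. Psmd14, Psmd1 and Psmd7 lie far to the left in Ly6g-low over Ly6g-high, Psmd10 far to the right in both comparisons with normal lung, and Psmb10 far to the left in both of these.

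Against normal lung, most constitutive genes of macrometastatic Ly6g-high neutrophils stood above the median change of all genes. With the main scaling 13 of 49 members were called higher, against 26.3% of all genes tested, and 4 lower, against 36.6%. By the adjusted p alone 32 were higher (background 39.9%) and 7 lower (background 44.7%). The median of the members was 0.35 and that of all genes -0.09. On library totals these became -0.11 and -0.55, so the direction of the median change depended on the scaling. The distance above the median of all genes was 0.44 under the 4 count scalings. These shift all genes alike by construction, so that agreement is no test of the distance. It was 0.22 and 0.40 on log2 FPKM with a pseudocount of 1 and 0.1. In this relative sense 40 of 49 members were above the median of all genes under the count scalings, a number fixed in the same way.

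**Figure D4:**
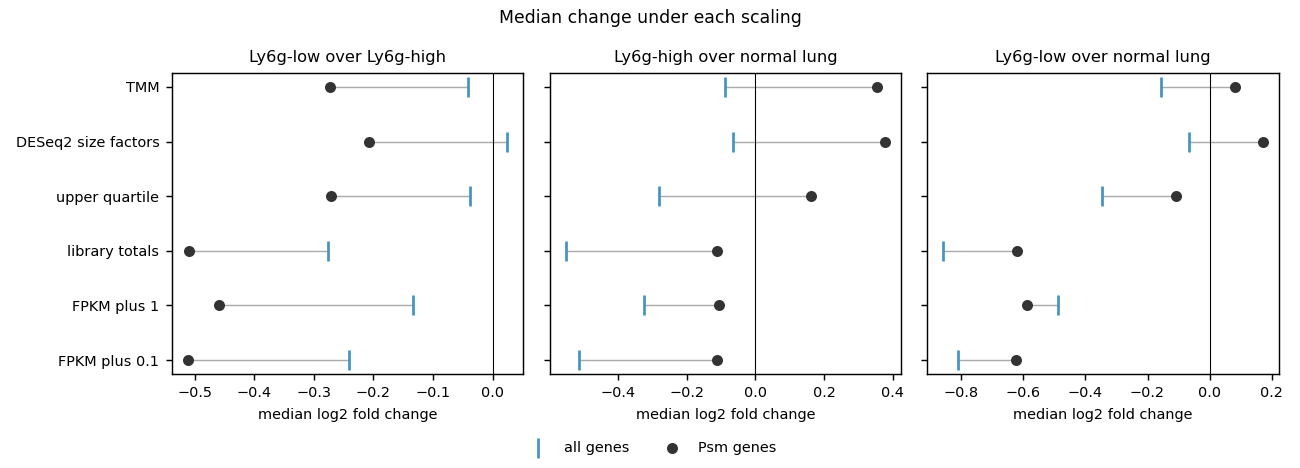
Median log2 fold change (horizontal axes) of the tested proteasome genes (points) and of all genes (bars) under 6 scalings, for the 3 comparisons. The points lie left of the bars in Ly6g-low over Ly6g-high and right of them in Ly6g-high over normal lung under every scaling shown, while the points themselves cross 0 in both comparisons with normal lung.

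The largest increases were those of Psmd10, Psmd5 and Psmd13. Psmd10, the chaperone of the 19S base also called gankyrin, had 23.5, 24.9 and 23.2 CPM in the macrometastatic Ly6g-high libraries, 23.6, 24.99 and 22.4 in the Ly6g-low libraries and 9.30, 10.3 and 10.1 in the normal lung libraries. The normal lung libraries were low and the macrometastatic groups overlapped. Its log2 fold change was 1.27 (SE 0.0727, adjusted p = 3.88e-13) in Ly6g-high and 1.26 (SE 0.0758, adjusted p = 8.19e-13) in Ly6g-low over normal lung, and it was above 0 under every scaling tried. Psmd10 overlaps Atg4a in the annotation. Psmd5, another base chaperone, had 20.3, 21.2 and 20.5 CPM in Ly6g-high, 15.6, 15.4 and 15.02 in Ly6g-low and 10.3, 8.99 and 10.8 in normal lung libraries. The lid gene Psmd13 had 58.7, 64.6 and 63.8 CPM, 50.5, 50.5 and 46.4 CPM, and 33.1, 31.5 and 31.6 CPM in the same order. Both had 3 separate levels in CPM, with Ly6g-low between the others, whereas on FPKM Ly6g-low and normal lung overlapped for Psmd5 and Ly6g-low was the lowest for Psmd13. Both rose in Ly6g-high over normal lung by 1.04 and 0.96 on the log2 scale.

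Of the 20S core, 4 of 7 alpha genes were called higher in macrometastatic Ly6g-high than in normal lung neutrophils (Psma2 0.88, Psma1 0.83, Psma6 0.80 and Psma7 0.58). So were 2 of 4 structural beta genes (Psmb1 0.77, Psmb3 0.75) and the catalytic Psmb7 (0.67), where the background is 26.3%. Psma3, Psma4 and Psma5 had 0.08, 0.20 and -0.04. Of the cap, Psmd14 (0.74), Psmd8 (0.71) and Psmc6 (0.58) were called higher besides Psmd13, and Psmd1, Psmc5 and Psmd3 had -0.01, 0.02 and 0.04. Psma7 (0.5809) and Psmc6 (0.5802) passed the fold threshold only narrowly. Psmc6 lost the call without the Ly6g-high library of replicate 3 or the normal lung library of replicate 1 or 3. Psma7 lost it without the Ly6g-high library of replicate 3 or the normal lung library of replicate 2. The called values stayed above 0 on library totals and FPKM, where 1 or 2 of them passed the fold threshold. The share of all genes called was not taken there. The 19S mean was 0.586 ± 0.0103 of the 20S mean in Ly6g-high, 0.564 ± 0.00475 in Ly6g-low and 0.659 ± 0.0104 in normal lung libraries (SD, n = 3 each), a ratio within the library that no scaling changes.

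Of the 5 immunoproteasome genes none was called higher and 1 was called lower in Ly6g-high over normal lung neutrophils, against 26.3% and 36.6% of all genes. Psmb10 was the one called lower, with 18.4, 17.3 and 16.2 CPM in macrometastatic Ly6g-high against 35.6, 33.7 and 33.8 CPM in normal lung libraries (log2 fold change -0.99, SE 0.0759, adjusted p = 6.39e-11). Psmb8 had -0.50 and passed the adjusted p (adjusted p = 1.7e-09) but not the fold threshold. It passed that threshold with upper-quartile normalization (-0.69) and on log2(FPKM + 0.1) (-0.96). Psmb10 and Psmb8 were below 0 under every scaling. Psme1 and Psme2 had -0.16 and -0.04, and Psmb9 had 0.15, which passed the adjusted p (adjusted p = 0.0304) but turned to -0.31 on library totals. The other genes called lower were of low count or uncertain. Psmg2 (-0.73) and Psmg4 (-0.70), chaperones of core assembly, were counted in few reads. Psmg2 had 20, 36.0 and 22.99 estimated counts in the Ly6g-high, 9, 21 and 11 in the Ly6g-low and 59.04, 63.6 and 53.96 in the normal lung libraries, and Psmg4 had 17, 21 and 15, then 12, 14.5 and 7, then 50, 27 and 39. Psmg4 overlapped between Ly6g-high and normal lung after scaling. Psme2b (-0.60) is a near copy of Psme2, so that reads may be shared between them, and had 10.1, 7.32 and 8.36 CPM in Ly6g-high, 9.75, 8.81 and 15.9 in Ly6g-low and 13.6, 12.96 and 12.4 in normal lung libraries. Psmg2, Psmg4 and Psme2b each lost the call when a single library was left out, Psmg2 without the Ly6g-high library of replicate 1, Psmg4 without that of replicate 1 or 3 or the normal lung library of replicate 1, and Psme2b without the Ly6g-high library of replicate 2 or 3 or the normal lung library of replicate 1. Without the normal lung library of replicate 2, Psma7 was no longer called and Psmd6 was.

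Ly6g-low neutrophils set against the same normal lung libraries had 8 members called higher, against 28.7% of all genes tested, and 7 lower, against 40.8%. By the adjusted p alone 21 were higher (background 39.6%) and 19 lower (background 47.2%). The median of the members was 0.08 and that of all genes -0.16, and on library totals they were -0.62 and -0.86. The distance above the median of all genes was 0.24 under the count scalings, which fix it by construction. It was 0.19 on log2(FPKM + 0.1), but on log2(FPKM + 1) the members lay 0.10 below. Called higher were Psmd10, Psma1 (0.87), Psmd8 (0.81), Psme4 (0.74), Psmd4 (0.65), Psma2 (0.62), Psmd13 (0.61) and Psmd5 (0.61), and Psma2, Psmd13, Psmd4 and Psmd5 fell below 0 on library totals and FPKM.

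Psma1 had 71.7, 69.1 and 68.1 CPM in Ly6g-high, 70.2, 72.2 and 72.3 in Ly6g-low and 37.7, 40.1 and 39.4 in normal lung libraries. Psmd8, a lid subunit, had 81.1, 82.2 and 77.3 CPM, 85.1, 89.6 and 83.02 CPM, and 52.7, 45.6 and 49.2 CPM. Normal lung was the low group for both genes, also on FPKM for Psma1. Psmd7 had 23.8, 25.8 and 26.6 CPM and Psmd1 51.6, 55.7 and 56.3 CPM in normal lung, so that their Ly6g-low values given above lay below both Ly6g-high groups (log2 fold changes over normal lung -0.997 and -0.78). Psmd14 stood elsewhere, with 30.2, 32.2 and 29.5 CPM in normal lung, overlapping its Ly6g-low values in CPM, though not on FPKM, and below its macrometastatic Ly6g-high values. Also called lower were Psmb10 (-1.19), Psmg2 (-1.33), Psmg4 (-1.03) and Psmb6 (-0.60), the last of these not without the Ly6g-low or the normal lung library of replicate 3. Psmc3ip (-1.65), the gene that is no subunit, had 7, 9 and 8 estimated counts in the Ly6g-high, 3.99, 4 and 0 in the Ly6g-low and 15, 13 and 16 in the normal lung libraries. Without the normal lung library of replicate 2, Psmd5 was no longer called and Psmc6 was.

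As a share of all FPKM in a library, the 50 genes held 0.271 ± 0.0024% in macrometastatic Ly6g-high, 0.210 ± 0.00371% in Ly6g-low and 0.381 ± 0.00356% in normal lung neutrophils (SD, n = 3 each). The mean FPKM of the 11 structural 20S genes was 50.01 ± 0.423, 36.3 ± 0.486 and 46.2 ± 0.285 in the same order, and that of the 17 genes of the 19S was 29.3 ± 0.47, 20.4 ± 0.379 and 30.4 ± 0.321. Ly6g-low neutrophils had the lowest value of each of these measures in all 3 libraries. The share depends on the other genes of the library, whose FPKM summed to a different total in each group.

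Genes that work with the proteasome were described from lists of partners. Of 17 tested partners outside the Psm symbols, 5 were called higher and 2 lower in macrometastatic Ly6g-high over normal lung neutrophils, where the background is 26.3% and 36.6%. Those higher were Sem1, a small subunit of the lid (1.57), Akirin2, which brings proteasomes into the nucleus (1.30), the deubiquitinase Uchl5 (1.11), Pomp, the chaperone that completes the core (0.84), and Zfand5 (0.71). Usp14, the other deubiquitinase of the cap, was called lower there (-0.68) and in Ly6g-low over Ly6g-high neutrophils (-1.11), where no partner was called higher (background 9.29%). Uchl5 and Usp14 therefore stood on opposite sides in Ly6g-high over normal lung neutrophils. In Ly6g-low over normal lung neutrophils 5 partners were called higher and 4 lower, with a background of 28.7% and 40.8%.

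Of 6 genes for ubiquitin and its activating enzymes, 4 were called higher (background 26.3%) and none lower (background 36.6%) in Ly6g-high over normal lung. Among these were Ubb (0.97), Rps27a (0.93) and Uba1 (0.66). The same 4 were called higher in Ly6g-low over normal lung (background 28.7%). None was called in Ly6g-low over Ly6g-high neutrophils (background 9.29% higher and 15.9% lower). Mean FPKM of these named genes was also above normal lung in both macrometastatic groups, at 1022, 788.9 and 716.9 for Ubb, 419.8, 333.0 and 303.2 for Rps27a and 95.2, 89.5 and 82.8 for Uba1 in Ly6g-high, Ly6g-low and normal lung. Of 7 tested genes of the axis in which the factor NRF1 is released from the ER and raises proteasome genes, Ddi2, the protease that cuts NRF1, was higher by 1.47, Nploc4 by 0.82 and Ngly1 by 0.71 in Ly6g-high over normal lung (3 called, background 26.3%), and none was called lower (background 36.6%). Nfe2l1, which encodes NRF1, had -0.52 there and was called lower in Ly6g-low over normal lung neutrophils (-0.68), where 5 of the 7 were called higher (background 28.7%) and 1 lower (background 40.8%), with Ufd1 among the higher ones at 0.59 but at 15.4 against 16.7 on mean FPKM, the other direction. Between Ly6g-low and Ly6g-high neutrophils Nfe2l2, encoding NRF2 (0.84), and Ngly1 (0.71) were called higher (background 9.29%) and none lower (background 15.9%).

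Among genes of class I antigen processing, the pathway the immunoproteasome feeds, 6 of 10 were called lower (background 36.6%) and none higher (background 26.3%) in macrometastatic Ly6g-high over normal lung neutrophils. They were Nlrc5, the transactivator of class I genes (-1.82), Tapbpl (-1.24), the trimming peptidase Erap1 (-1.03), the peptide transporter subunit Tap1 (-0.76) and the chaperones Canx (-0.73) and Calr (-0.71). In Ly6g-low over normal lung, 6 were called lower (background 40.8%) and none higher (background 28.7%), and in Ly6g-low over Ly6g-high neutrophils Nlrc5 (0.66) was called higher (background 9.29%) and Canx (-0.76) and Pdia3 (-0.59) lower (background 15.9%). Of 12 genes of the interferon path to the immunoproteasome, 5 were called higher in Ly6g-high over normal lung, against 26.3% of all genes (Ifngr1 1.65, Ifngr2 1.44, Ifnar2 0.95, Irf2 0.77 and Jak2 0.65) and Irf8, which is also strongly expressed in dendritic cells and monocytes, was called lower (-2.33, background 36.6%). Irf1 had -0.56 and was not called. In Ly6g-low over Ly6g-high neutrophils Jak2 (0.71), Irf1 (0.68) and Ifnar1 (0.68) were called higher (background 9.29%) and Irf8 lower (-0.96, background 15.9%). In Ly6g-low over normal lung neutrophils 8 were called higher (background 28.7%) and 1 lower (background 40.8%), of which Irf9 (0.59) and Ifnar1 (0.64) turned direction on mean FPKM, at 45.8 against 49.5 and 27.6 against 28.9. The comparisons share their libraries, and the marker values given for normal lung apply to these lists as well.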

How the data were processed

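Proteasome genes were followed in 9 bulk RNA-seq libraries of sorted mouse lung neutrophils. The members and gene lists were chosen with earlier results of these data known. Estimated counts per gene, as deposited by the authors, were not normalized, and the deposited FPKM values are scaled for transcript length and fragments. Per the labels, libraries were poly(A)-selected, strand-specific and sequenced as paired ends, and the submitters' processing notes name mm10. The aligner and counter are not given in the sources used here. Of 22064 genes listed 18325 had values, and 37.9% of estimated counts were whole (within 0.005). All were rounded. Genes passing edgeR's filterByExpr by group (14108) were fitted in R 4.3.3 with edgeR 4.0.16 (TMM, quasi-likelihood F test, 9 libraries, group alone), with Benjamini-Hochberg adjustment over all of them. SE were derived from the F statistic as log2 fold change over root F. The test was checked on simulated data in which a small share of genes changed, up and down alike, in the Ly6g-low group alone. Most genes were called in the comparisons with normal lung, so this check cannot speak to scaling there. No per-sample column was left out. Within a group no pair of libraries agreed within sampling noise.

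Values in every library were given for the immunoproteasome genes, their constitutive counterparts and, for each comparison, up to 3 called constitutive members with the largest increase and up to 3 with the largest decrease. Of the partner lists, up to 4 called genes in each direction were to be named, largest first; further called partners and uncalled genes were added after their values were seen, and a few listed genes are not reported here. The log2 ratios of FPKM used no pseudocount. Alternatives were scaling by upper quartile, by DESeq2's size factors or by library totals (added after seeing the data), DESeq2 1.42.0 as the test, other filters and fold thresholds, no adjustment of p, fits to only the 6 libraries compared, a replicate block, omission of each library, and limma 3.58.1 on log2 FPKM (pseudocount 1 or 0.1, or a filter keeping genes that reach 1 FPKM in 3 libraries). Promoter motifs were searched in Python 3.11.15. The median quasi-dispersion of the fit was 0.882. The root of edgeR's common dispersion, a measure of relative spread between libraries of a group, was 0.0346. Members with few counts, such as Psmg2 and Psmg4, had SE of 0.22 to 0.35, and counting error alone is no guide to variation between mice.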

Additional observations from a re-analysis of the deposited data

How the results depend on the processing

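The catalytic ratios kept their direction and order of groups with a pseudocount of 1 FPKM, with estimated counts in place of FPKM and with any library left out. Leaving out a library gave differences in log2 ratio, Ly6g-high over normal lung, of -1.06 to -1.0 for Psmb8 to Psmb5, 0.16 to 0.28 for Psmb9 to Psmb6 and -1.74 to -1.66 for Psmb10 to Psmb7. For Ly6g-low over Ly6g-high it gave 0.10 to 0.24, 0.60 to 0.70 and 0.04 to 0.19, and for Ly6g-low over normal lung -0.94 to -0.80, 0.81 to 0.94 and -1.65 to -1.50.

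The counts of called members depended on scaling and threshold, given here as higher and lower. The share of all genes called was taken only for the main setting, with and without the fold threshold. Counts under other settings therefore have no background here and cannot be read as particular to the members. On library totals the median of all genes was itself -0.28, -0.55 and -0.86 in the 3 comparisons, in the order below. For Ly6g-low over Ly6g-high neutrophils (0 and 5), no fold threshold gave 3 and 29, a threshold of 1 gave 0 lower, library totals 16 lower, and limma 12 lower on log2(FPKM + 1) with or without the FPKM filter and 14 on log2(FPKM + 0.1). Leaving out a library gave 0 to 1 higher, the 1 being Psme2b without the Ly6g-low library of replicate 2, and 5 to 7 lower. In Ly6g-high over normal lung neutrophils (13 and 4), no fold threshold gave 32 and 7, a threshold of 1 gave 2 and 0, library totals 1 and 9, upper-quartile normalization 6 higher, at least 10 counts in every library 7 higher, and DESeq2 2 lower. Limma gave 1 and 7 on log2(FPKM + 1) with or without the filter and 2 and 8 on log2(FPKM + 0.1), and leaving out a library 2 to 4 lower, with 2 without the Ly6g-high library of replicate 1 or 3 or the normal lung library of replicate 1. In Ly6g-low over normal lung neutrophils (8 and 7), no fold threshold gave 21 and 19, a threshold of 1 gave 1 and 4, library totals 0 and 25, upper-quartile normalization 3 and 11, and at least 10 counts in every library 3 higher. Limma gave 0 and 25 on both pseudocounts, and 0 and 24 with the filter. The log2 fold changes over normal lung of Psma2, Psmd13, Psmd4 and Psmd5 in Ly6g-low neutrophils changed sign, to -0.078, -0.086, -0.055 and -0.088 on library totals, -0.074, -0.082, -0.053 and -0.074 on log2(FPKM + 1), with and without the filter, and -0.075, -0.085, -0.054 and -0.084 on log2(FPKM + 0.1). The scaling itself shifts all genes alike on library totals, by construction. The cause of the other changes was not tested.

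A replicate block left the counts at 0 and 5, 13 and 4, and 8 and 7. Libraries of equal number deviated together by r of -0.068 to 0.077, so the numbers were not taken to pair libraries. With 3 libraries per group and scaling factors that differ by group, the direction of a change against normal lung is firm only where it held under each scaling. Depth limits Psmg2, Psmg4 and Psmc3ip, which had few counts.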
